A study of Oryza sativa Japonica Group with 12 samples.

Results

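Strigolactone signalling and tillering genes were followed in the base of the rice shoot, where the axillary buds that become tillers form. The genes are D14, D3, SMAX1L and IPA1, chosen by symbol or synonym, and each is read by 1 probe set that is annotated to 1 gene. They make 4 of the 17905 genes with such a probe set. These 4 had been picked out because earlier results on the same arrays placed them lower in the mutant at 11 d, so that difference chose them and is given below as a description with no test.

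Strigolactones are hormones made from carotenoids that hold back the outgrowth of axillary buds. D14 is the receptor: it binds and cleaves the hormone and then joins D3, an F-box protein that brings its targets to a ubiquitin ligase for breakdown. The target in tillering is the repressor D53, which acts with co-repressors of the TOPLESS family on transcription factors such as IPA1 (SPL14), a regulator under which rice makes fewer and stronger tillers. D3 also serves the related karrikin pathway, where the repressor SMAX1 is broken down, and SMAX1L is named for its likeness to that protein. Rice plants that lack D14 or D3 are short with many tillers, and plants that lack cytosolic glutamine synthetase 1;2 (GS1;2), an enzyme that joins ammonium to glutamate, are known for weak bud outgrowth.

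Total RNA of the lowest 5 mm of the shoot was measured on the Affymetrix Rice Genome Array, with 3 arrays in each of 4 groups. The groups were homozygous gs1;2 mutants at 11 d, wild type at 11 d, gs1;2 mutants at 7 d and wild type at 7 d, all of the cultivar Nipponbare and all grown in hydroponic solution with 1 mM ammonium as the nitrogen source. The design text names the 3 arrays per group as biological replicates. How many plants were pooled, and whether the mutants descend from more than 1 line, is not given in the sources used here. All levels are log2 signals from robust multi-array averaging (RMA), in which 1 unit is a doubling, and levels of different genes cannot be set against each other because each has its own probes.

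Some facts of the whole data set bear on every value. Arrays of the same group correlated at 0.994 to 0.997 over all probe sets, and the wild-type arrays at 11 d correlated with the arrays of the other groups at 0.978 to 0.985. Arrays of different groups among the other 3 correlated at 0.987 to 0.995, a range above that of the wild-type 11 d group. The labels place all 12 samples in the same greenhouse. The growth text also describes a chamber with another lamp, and a longer growth than 11 d, for samples numbered from 13 on, and 13, 14 and 15 are the numbers in the titles of the wild-type 11 d arrays. Whether that passage means these arrays is not clear from the sources used here. If it did, growth condition could not be told apart from genotype and age in this group. The targeted gene GS1;2 read 8.37, 8.65 and 11.44 in the arrays labelled mutant at 11 d, against 12.44, 12.42 and 12.50 in wild type. At 7 d it read 7.76, 7.65 and 7.80 in the mutant and 12.38, 12.31 and 12.46 in wild type. Replicate 3 of the arrays labelled mutant at 11 d thus disagreed with its label in the targeted gene. The differences of the 4 genes that use it, and the main calls at 11 d, are therefore also given without it. Of the shoot meristem markers OSH1 was at 11.67 in the mutant and 11.55 in wild type at 11 d, and at 11.50 in the mutant and 11.52 in wild type at 7 d, so the labelled tissue carried it in every group. OSH71 was at 9.97 in the mutant and 10.48 in wild type at 11 d, and at 9.92 in the mutant and 10.00 in wild type at 7 d, and was thus highest in the group where the 4 genes were high. OSH6 went the other way and was lowest in that group, at 8.24 in the mutant and 7.95 in wild type at 11 d. Its means at 7 d were 7.98 in the mutant and 8.20 in wild type. OSH43 was at 5.62 in the mutant and 5.61 in wild type at 11 d, and at 5.64 in the mutant and 5.46 in wild type at 7 d.

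All 4 genes had a single high group, wild type at 11 d, and the other 3 groups lay together. In each gene the 3 wild-type arrays at 11 d stood above all 9 other arrays, an arrangement found in 11.6% of the 57194 probe sets tested. The choice of the genes on the 11 d difference already favours this arrangement, so nothing is read from their count. Over the 4 genes the means of the other 3 groups spanned 0.079 to 0.18, less than the standard deviation within groups, which was 0.17 to 0.26. The neighbours in the order of levels below wild type at 11 d therefore did not differ beyond their spread.

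**Figure D1:**
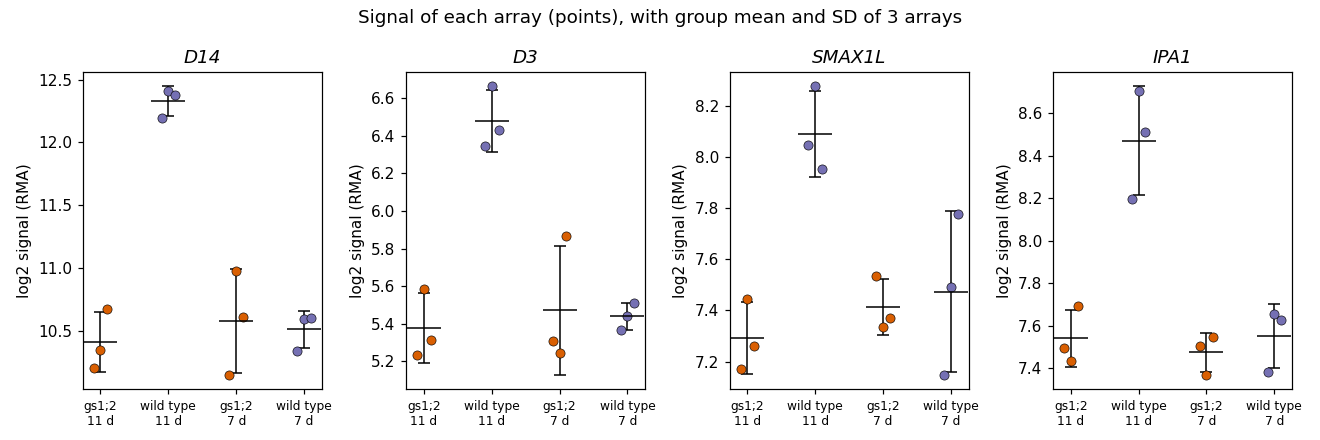
Log2 signal (RMA) of D14, D3, SMAX1L and IPA1 in each of the 12 arrays, with a point per array and a bar for the group mean and SD of 3 arrays, each panel on its own scale that does not start at 0. The 3 wild-type arrays at 11 d are the highest in every panel, and the mutant arrays at 11 d overlap with the 7 d arrays of both genotypes.

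D14, the receptor, is listed as LOC4331983. Its log2 signal was 10.20, 10.35 and 10.67 in the arrays labelled mutant at 11 d, against 12.20, 12.41 and 12.38 in wild type at 11 d. At 7 d it was 10.15, 10.97 and 10.61 in the mutant, against 10.34, 10.59 and 10.60 in wild type. The lowest wild-type array at 11 d was 1.22 above the highest of the 9 others, the widest gap of the 4 genes. The group means were 10.41 ± 0.24 in the mutant and 12.33 ± 0.12 in wild type at 11 d, and 10.58 ± 0.41 in the mutant and 10.51 ± 0.15 in wild type at 7 d (SD, n = 3 each). The genotype difference (mutant minus wild type) at 11 d was -1.93 (SE 0.18), a 3.80-fold lower signal in the mutant. The order of the other 3 groups, mutant at 7 d, wild type at 7 d and mutant at 11 d, ran over only 0.17.

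D3, the F-box protein that D14 recruits, is listed as LOC9272469 and lay near the middle of all probe sets by mean signal (percentile 57.8). It read 5.23, 5.59 and 5.31 in the arrays labelled mutant at 11 d, against 6.34, 6.66 and 6.43 in wild type at 11 d. Its values at 7 d were 5.31, 5.24 and 5.87 in the mutant, against 5.37, 5.44 and 5.51 in wild type. The mutant arrays at 11 d and all 7 d arrays overlapped, and the highest of them, mutant 7 d replicate 3, was 0.48 below the lowest wild-type array at 11 d. The group means were 5.38 ± 0.19 in the mutant and 6.48 ± 0.17 in wild type at 11 d, and 5.47 ± 0.34 in the mutant and 5.44 ± 0.071 in wild type at 7 d (SD, n = 3 each), in the same order as for D14. The genotype difference at 11 d was -1.10 (SE 0.15), or 2.15-fold lower in the mutant. Detection calls were not used here, so how much of this low signal is background is unknown.

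SMAX1L, related to the repressor of the karrikin pathway, is listed as LOC4345082. It read 7.17, 7.44 and 7.26 in the arrays labelled mutant at 11 d, against 8.04, 8.28 and 7.95 in wild type at 11 d. At 7 d it read 7.54, 7.33 and 7.37 in the mutant, against 7.15, 7.49 and 7.78 in wild type. Wild type at 7 d spread most, and its highest array came within 0.17 of the lowest wild-type array at 11 d, the narrowest gap of the 4 genes. The group means were 7.29 ± 0.14 in the mutant and 8.09 ± 0.17 in wild type at 11 d, and 7.41 ± 0.11 in the mutant and 7.47 ± 0.31 in wild type at 7 d (SD, n = 3 each). The genotype difference at 11 d was -0.80 (SE 0.14), or 1.74-fold lower in the mutant, the smallest among the 4.

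IPA1, the transcription factor downstream, is listed as LOC4345998. It read 7.50, 7.44 and 7.69 in the arrays labelled mutant at 11 d, against 8.20, 8.70 and 8.51 in wild type at 11 d. Signals at 7 d were 7.51, 7.37 and 7.55 in the mutant, against 7.38, 7.65 and 7.63 in wild type. The lowest wild-type array at 11 d was 0.50 above the highest of the others, which was the array labelled mutant 11 d replicate 3. The group means were 7.54 ± 0.13 in the mutant and 8.47 ± 0.26 in wild type at 11 d, and 7.48 ± 0.093 in the mutant and 7.55 ± 0.15 in wild type at 7 d (SD, n = 3 each). The genotype difference at 11 d was -0.93 (SE 0.13), or 1.91-fold lower in the mutant. In bulk tissue such as this, fewer cells that express a gene and less RNA per cell cannot be told apart.

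At 11 d the mutant and wild-type arrays did not overlap in any of the 4 genes, with the mutant lower, as in 19.3% of all probe sets. By the adjusted p threshold of 0.05, 13.1% of probe sets were lower in the mutant at this age and 25.9% differed in either direction. Because this difference chose the 4 genes, nothing is read from their count. Without the array labelled mutant 11 d replicate 3 the differences were -2.06 (SE 0.19) for D14, -1.07 (SE 0.18) for D3, -0.78 (SE 0.17) for SMAX1L and -1.01 (SE 0.14) for IPA1. In GS1;2 this array lay 74.2% of the way from the other arrays of its label to wild type. In D14 it lay 19.2% of the way and in IPA1 22.5%, while in D3 (-9.05%) and SMAX1L (-6.02%) it lay on the far side, away from wild type.

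The genotype difference at 7 d is the comparison that did not enter the choice of the genes, and 0 of the 4 differed by limma's moderated test at an adjusted p under 0.05. Over all probe sets, 0.972% passed at 7 d (556 of 57194). The count for the 4 genes was also 0 at an unadjusted p under 0.05, and by adjusted p it was 0 in each of the 20 alternative fits. D14 differed by 0.067 (SE 0.18, limma adjusted p = 0.893) with a 95% interval of -0.32 to 0.46, and D3 by 0.034 (SE 0.15, limma adjusted p = 0.941) with an interval of -0.30 to 0.37. IPA1 differed by -0.079 (SE 0.13, limma adjusted p = 0.807) with an interval of -0.35 to 0.20, and SMAX1L by -0.060 (SE 0.14, limma adjusted p = 0.88) with an interval of -0.37 to 0.25. The mutant and wild-type arrays overlapped in every one of the 4 genes at this age. The intervals leave room for a difference of up to 0.46 in size at 7 d. The estimates at 11 d were larger in size, but they chose the genes, so they cannot be set evenly against those at 7 d.

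**Figure D2:**
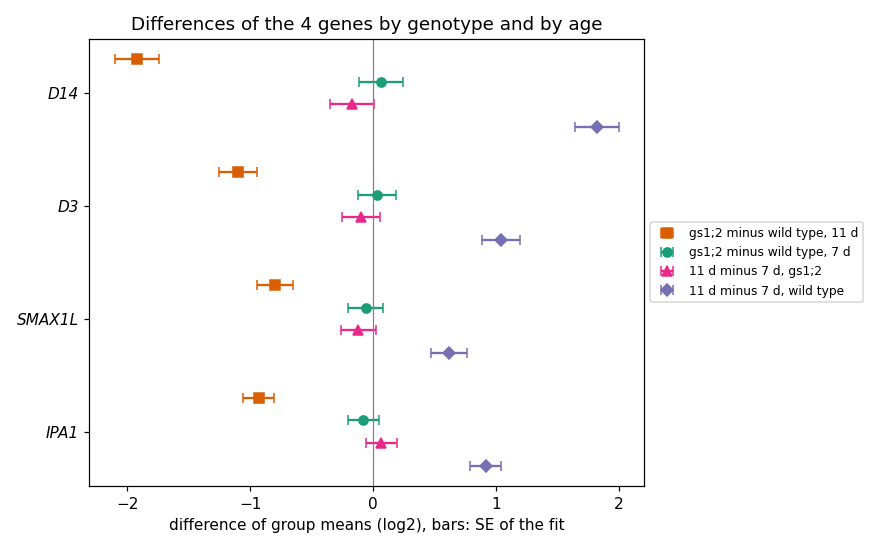
Differences of group means (log2) with the SE of the fit for D14, D3, SMAX1L and IPA1: mutant minus wild type at 11 d and at 7 d, and 11 d minus 7 d in the mutant and in wild type. The genotype difference at 11 d lies between -1.93 and -0.80 and the age difference in wild type between 0.62 and 1.82, while the genotype difference at 7 d and the age difference in the mutant lie near 0.

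Between the ages the 4 genes differed by -0.17 to 0.066 in the mutant and by 0.62 to 1.82 in wild type. The array titles carry the mark 3rd at 7 d and 4th at 11 d in both genotypes. Whatever this mark denotes cannot be told apart from age. In the mutant the difference of 11 d minus 7 d was -0.17 (SE 0.18) for D14, -0.097 (SE 0.15) for D3, -0.12 (SE 0.14) for SMAX1L and 0.066 (SE 0.13) for IPA1, and the arrays of both ages overlapped in all 4. The sign of this small difference turned in D14, D3 and IPA1 when 1 array was left out, while SMAX1L stayed below 0 (-0.20 to -0.059). D14 came to 0.025 without mutant 7 d replicate 2, D3 to 0.10 without mutant 7 d replicate 3, and IPA1 to -0.0096 without the array labelled mutant 11 d replicate 3. Without that array the difference in the mutant was -0.30 for D14, -0.065 for D3 and -0.11 for SMAX1L. In wild type the same difference was 1.82 (SE 0.18) for D14, 1.04 (SE 0.15) for D3, 0.62 (SE 0.14) for SMAX1L and 0.92 (SE 0.13) for IPA1. The wild-type arrays at 11 d and at 7 d did not overlap in any of them, with 11 d higher, as in 19.3% of all probe sets. The change of the genotype difference between the ages (11 d minus 7 d) was -1.99 (SE 0.25) for D14, -1.14 (SE 0.22) for D3, -0.74 (SE 0.20) for SMAX1L and -0.85 (SE 0.18) for IPA1. Without the array in doubt it was -2.12 for D14, -1.10 for D3, -0.72 for SMAX1L and -0.93 for IPA1. These values use the arrays that chose the genes and carry no test. Over all probe sets 8.47% passed for age in the mutant, 31.8% for age in wild type and 20.6% for the change between ages.

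**Figure D3:**
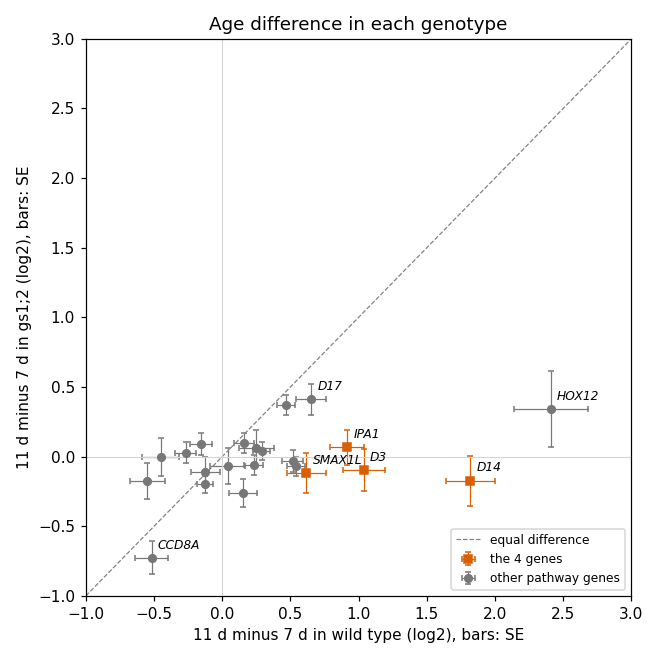
Age difference (11 d minus 7 d, log2) in the mutant on the vertical axis against that in wild type on the horizontal axis, with SE bars, for the 4 genes (squares) and 18 other pathway genes (circles), and a dashed line of equal difference. The 4 genes and HOX12 lie to the right and close to 0 on the vertical axis, and D17 and CCD8A lie nearer to the line.

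Across the arrays the 4 genes ran together with the high group included, and less so without it. Pearson correlations between them over the 12 arrays lay between 0.851 (D14 with SMAX1L) and 0.932 (D14 with IPA1). Over the 9 arrays that leave out wild type at 11 d they lay between 0.0876 (D14 with D3) and 0.398 (IPA1 with SMAX1L). The arrays share the 4 groups, so these are descriptions of the groups more than of single arrays. The choice of the 4 genes on a lower mutant at 11 d also raises the correlations over the 12 arrays.

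For each gene the 4 named genes with the most similar pattern were listed, from 3159 probe sets with an informative gene name, by Pearson correlation over the 12 arrays. D14 was most like DOF4 (0.989), PHY18 (0.988), HAK10 (0.988) and NBP (0.987), and D3 most like ORR3 (0.971), SAPK8 (0.956), OsCASPL5A2 (0.952) and phyC (0.951). IPA1 was most like PIP5K (0.983), PIN4 (0.976), CDKF-1 (0.974) and TFIIB (0.974). SMAX1L was most like a gene listed as aquaporin (0.944), ETR2 (0.933), OsC3H37 (0.929) and RAA1 (0.926). None of the 4 genes was on the list of another. Over the 9 arrays without wild type at 11 d the correlation with these 4 genes was 0.801 to 0.910 for D14, 0.527 to 0.729 for D3, 0.663 to 0.860 for IPA1 and 0.676 to 0.831 for SMAX1L. These 9 arrays were among the 12 that chose the similar genes. The values are thus partly set by that choice and are no separate check of the likeness.

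Of the other pathway genes looked for by symbol, 18 were on the array with a probe set of their own, and at 11 d 3 of them rose and 4 fell in the mutant (limma, adjusted p under 0.05), while 11 did not pass. Over all probe sets 12.8% rose and 13.1% fell. Their median difference was -0.067, against 0.023 over all probe sets. Without the array in doubt 2 of the 18 rose and 4 fell. At 7 d 0 of the 18 passed (median 0.16, against -0.016 over all probe sets), although CCD8A did (adjusted p = 0.0477) without the array labelled mutant 11 d replicate 2. Having 4 genes of the pathway set apart because they were lower lowers the number of decreases left among these 18. D53, D14L, TB1 and D27 were not matched by symbol, and D10 had no probe set of its own, so they are not analysed here.

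**Figure D4:**
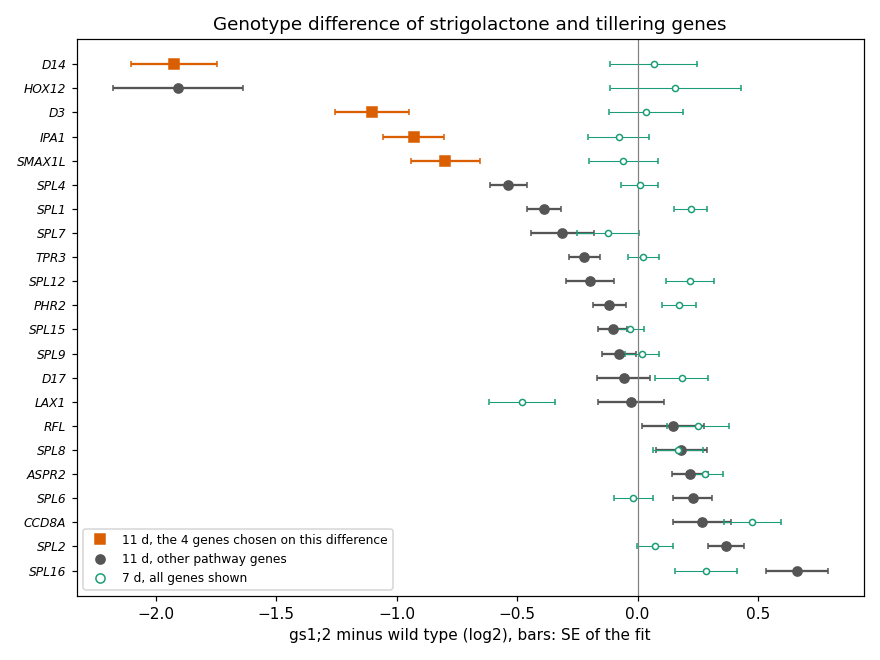
Genotype difference (mutant minus wild type, log2) with the SE of the fit at 11 d (filled) and at 7 d (open) for the 4 genes chosen on the 11 d difference (squares) and 18 other strigolactone and tillering genes. HOX12 lies between D14 and D3 at 11 d, and at 7 d all genes lie between -0.48 and 0.48.

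HOX12, which encodes a homeodomain-leucine zipper transcription factor, had the largest difference of these 18 and the same pattern as the 4 genes. It read 7.91, 8.07 and 8.74 in the arrays labelled mutant at 11 d, against 10.29, 10.11 and 10.04 in wild type at 11 d. The 7 d arrays gave 7.61, 8.14 and 7.93 in the mutant, against 7.07, 7.91 and 8.23 in wild type. Wild type at 11 d was high and the other groups overlapped. HOX12 fell by 1.91 in the mutant at 11 d (SE 0.27, limma adjusted p = 0.000214), and fell by 2.16 without the array in doubt. For age it did not pass in the mutant (0.34, SE 0.27, limma adjusted p = 0.57), nor without the array in doubt (0.094). In wild type it rose by 2.41 (SE 0.27, limma adjusted p = 2.8e-05).

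Neither measured gene of strigolactone synthesis passed for genotype at 11 d, with differences of -0.057 (SE 0.11) for D17 and 0.27 (SE 0.12) for CCD8A, and of 0.032 and 0.23 without the array in doubt. D17, the carotenoid cleavage dioxygenase CCD7, read 7.78, 7.62 and 7.43 in the arrays labelled mutant at 11 d, against 7.63, 7.61 and 7.77 in wild type, so the genotypes overlapped. It rose with age in the mutant by 0.41 (SE 0.11, limma adjusted p = 0.0374) and in wild type by 0.65 (SE 0.11, limma adjusted p = 0.00056). In 7 of the 12 leave-one-out fits the rise in the mutant did not pass, with adjusted p up to 0.154, while without the array in doubt it passed (0.50, adjusted p = 0.0228). CCD8A, a relative of the D10 dioxygenase, fell with age in both genotypes, by 0.73 in the mutant (limma adjusted p = 0.00248) and by 0.52 in wild type (limma adjusted p = 0.00515). The genotype difference of CCD8A at 11 d passed (adjusted p = 0.016) without the array labelled mutant 11 d replicate 2.

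Co-repressors of the TOPLESS family, partners of D53, differed little. TPR3 read 11.19, 11.24 and 11.24 in the arrays labelled mutant at 11 d, against 11.41, 11.41 and 11.50 in wild type, and fell by 0.22 (SE 0.064, limma adjusted p = 0.0228). Its call was lost when wild-type 11 d replicate 3 was left out (adjusted p = 0.0949), and likewise for replicate 1 (0.0867) or 2 (0.0532) of the arrays labelled mutant at 11 d, and passed without the array in doubt (-0.23, adjusted p = 0.0484). ASPR2, also listed as TPR2, rose by 0.22 (SE 0.074, limma adjusted p = 0.0492), passed in 4 of the 12 leave-one-out fits and had an adjusted p of 0.0841 without the array in doubt. Its second probe set did not pass (0.12, limma adjusted p = 0.412), so its probe sets disagree in the call but not in the sign.

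IPA1 belongs to the SPL family of transcription factors, and 10 other SPL genes were on the array. At 11 d 2 of them rose, 2 fell and 6 did not pass. SPL4 fell by 0.54 in the mutant (SE 0.077, limma adjusted p = 0.000217), with 7.65, 7.54 and 7.60 in the arrays labelled mutant, against 8.10, 8.13 and 8.17 in wild type. Its 3 other probe sets did not pass (-0.27, -0.11 and -0.10), so its probe sets disagree in the call but not in the sign. SPL1 fell by 0.39 (SE 0.069, limma adjusted p = 0.00109). Like IPA1, both were higher at 11 d than at 7 d in wild type, by 0.52 for SPL4 and 0.54 for SPL1 (limma adjusted p = 0.000212 and 7e-05), and did not pass for age in the mutant (-0.030 and -0.069). In the 3 other probe sets of SPL4 the age difference in wild type was 0.50, 0.22 and 0.033 (limma adjusted p = 0.00811, 0.26 and 0.893). They too disagree in the call but not in the sign. Without the array in doubt the genotype difference at 11 d was -0.54 for SPL4 (adjusted p = 0.00105) and -0.38 for SPL1 (adjusted p = 0.00507).

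SPL16, known in rice for grain width, rose by 0.66 in the mutant at 11 d (SE 0.13, limma adjusted p = 0.00198), with 5.56, 5.66 and 5.40 in the arrays labelled mutant, against 4.88, 4.91 and 4.84 in wild type. SPL2 rose by 0.37 (SE 0.075, limma adjusted p = 0.00272). Both also passed without the array in doubt, at 0.73 for SPL16 (adjusted p = 0.00284) and 0.37 for SPL2 (adjusted p = 0.00863). SPL7 (-0.31), SPL6 (0.23), SPL12 (-0.20), SPL15 (-0.10), SPL9 (-0.077) and SPL8 (0.18), which is LG1, the gene of the leaf ligule, did not pass at 11 d. Without mutant 7 d replicate 2, SPL6 (adjusted p = 0.0378) and SPL7 (0.0408) passed, and SPL7 did without the array labelled mutant 11 d replicate 2 (0.0268). SPL9 rose with age in both genotypes, by 0.37 in the mutant (limma adjusted p = 0.00493) and by 0.47 in wild type (limma adjusted p = 0.000203).

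Among the genes that form or control axillary meristems, LAX1, needed to start them, differed by -0.029 at 11 d, RFL by 0.15 and PHR2, an activator of phosphate starvation genes, by -0.12, and none passed. Without the array in doubt LAX1 was at -0.071, RFL at 0.16 and PHR2 at -0.13, and again none passed. A weaker probe set of PHR2 was lower in the mutant at 11 d by 0.34 (limma adjusted p = 0.0036), so PHR2 probe sets disagree in the call but not in the sign. LAX1 fell with age in wild type by 0.45 (limma adjusted p = 0.0232) and PHR2 rose by 0.23 (limma adjusted p = 0.0224), and each passed in 8 of the 12 leave-one-out fits.

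Markers of other tissues moved beside these results. Among all probe sets 12.8% rose and 13.1% fell in the mutant at 11 d. Of 6 green leaf markers 5 rose in the mutant at 11 d and 0 fell, and their mean log2 signal was 10.26 to 10.61 in the arrays labelled mutant, against 9.07 to 9.36 in wild type. At 7 d it was 9.45 to 9.67 in the mutant and 9.14 to 9.63 in wild type. The mean was thus high only in the mutant at 11 d, whereas the 4 genes were low there and in both 7 d groups. Of 5 root markers 3 rose (SHR1, SCR1 and LSI2) and 1 fell (CASP1) at 11 d, while LSI1 did not pass (0.20, limma adjusted p = 0.279). The mean of the root markers was 6.66 to 6.75 in the arrays labelled mutant at 11 d, against 6.31 to 6.44 in wild type. Its 7 d values were 6.63 to 6.66 in the mutant and 6.65 to 6.80 in wild type. This mean was thus lowest in wild type at 11 d, the group where the 4 genes were high. Of 4 shoot meristem markers 1 rose and 1 fell, with a mean of 8.86 to 8.88 in the arrays labelled mutant at 11 d, against 8.81 to 9.01 in wild type. The meristem marker that fell was OSH71, by 0.52 in the mutant at 11 d (limma adjusted p = 0.000461). It did not pass for age in the mutant (0.047, limma adjusted p = 0.837) and rose with age in wild type by 0.48 (limma adjusted p = 0.000588). The one that rose was OSH6, by 0.29 (limma adjusted p = 0.047). Without the array in doubt OSH71 still fell (-0.54, adjusted p = 0.00149) and OSH6 did not pass (adjusted p = 0.121). The count of green leaf markers was then again 5 up and 0 down, and that of root markers 2 up and 0 down, with LSI2 (adjusted p = 0.0559) and CASP1 (adjusted p = 0.124) no longer passing. The part of tissue makeup in the differences of the 4 genes was not tested.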

How the data were processed

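Deposited values are on a log2 scale. Per the submitters' processing notes, the authors used RMA (robust multi-array averaging) under R 3.1.0. The background correction is not given in the sources used here, nor is a genome build, so no coordinates are printed. Array medians were 4.94 to 5.00 (log2) and no 2 arrays were identical, so the values were used as deposited. Leaving out 187 control probe sets, 57194 were tested. Probe sets were named from the platform annotation, with names from the gene table of the assembly ASM3414082v1, in which all 17905 annotated genes were found.

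A single limma fit (version 3.58.1, run in R 4.3.3) held all 12 arrays, with group means, default empirical Bayes moderation and 8 residual degrees of freedom. P-values are two-sided and adjusted by Benjamini-Hochberg over all probe sets of a contrast. The number of arrays limits the precision, and the fit was tested on simulated data. The genes and lists were chosen with earlier results of these data known. Pathway genes were matched by symbol or synonym. 5 matches that belong to other gene families under the same symbol were left out. A gene counts by its brightest probe set. Named are the 4 genes, pathway genes that passed, the core strigolactone genes and, for likeness, 4 genes each. The SPL family was named whole, and the meristem genes LAX1, RFL and PHR2 were named after their values were seen. Alternatives were other moderation, 2-group fits, a filter on dim probe sets, 2 normalizations, array weights, probe sets averaged by gene, a replicate block and each array left out.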

Additional observations from a re-analysis of the deposited data

Results flagged for a closer look

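The genotype difference (mutant minus wild type) changed between 7 d and 11 d in 3 of the 18 other pathway genes, by limma's interaction test, against 20.6% of all probe sets. The change was -2.07 for HOX12 (SE 0.38, limma adjusted p = 0.00224), -0.61 for SPL1 (SE 0.10, limma adjusted p = 0.000888) and -0.55 for SPL4 (SE 0.11, limma adjusted p = 0.00333). Each of the 3 passed in all 12 leave-one-out fits by its brightest probe set. Without the array labelled mutant 11 d replicate 3 the changes were -2.32 for HOX12, -0.60 for SPL1 and -0.55 for SPL4. The 3 other probe sets of SPL4 did not pass for this change (-0.52, -0.12 and -0.0028, limma adjusted p = 0.054, 0.731 and 0.995). With single arrays left out 5 more genes passed in 1 or 2 of the 12 fits. SPL12 passed without the array labelled mutant 11 d replicate 3 (-0.49, adjusted p = 0.0312) and without mutant 7 d replicate 1 (0.024), and PHR2 without mutant 7 d replicate 1 (0.0489). SPL2 passed without wild-type 7 d replicate 1 (0.036) or 11 d replicate 1 (0.0374), LAX1 without wild-type 11 d replicate 1 (0.0298) and SPL16 without wild-type 7 d replicate 2 (0.0434). All 3 changes use the wild-type arrays at 11 d, for which the sources leave unclear whether a different growth chamber was used. Groups of 3 arrays were not searched for outlying arrays.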

How the results depend on the processing

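At 11 d the genotype difference of D14, D3, SMAX1L and IPA1 stayed below 0 in all 19 alternatives, with ranges of -2.06 to -1.82, -1.21 to -1.01, -0.87 to -0.71 and -1.07 to -0.81. This difference chose the genes, and their mutant and wild-type arrays did not overlap at 11 d. Leaving out an array could therefore not turn its sign, and the ranges describe only its size. At 7 d 0 of the 4 genes passed in any of the 20 alternatives, and the adjusted p of D14 was 0.358 to 0.98. Without each array in turn the 7 d difference took both signs in D14 (-0.13 to 0.28), D3 (-0.16 to 0.15) and SMAX1L (-0.22 to 0.092), while that of IPA1 stayed below 0 in all 20 alternatives (-0.20 to -0.026). The titles of 2 arrays of each genotype at 7 d share a number. These arrays did not deviate together (correlations 0.047 and 0.0513), and with the number as a replicate block D14 was at -0.035 and D3 at -0.20, with 133 probe sets passing in place of 556. That count was 130 to 1556 without single arrays, 1183 with trend and robust moderation, 1045 without the dimmer probe sets, 321 with array weights and 249 in the 2-group fit. For the 18 other pathway genes at 11 d, 2 to 3 rose and 3 to 5 fell without single arrays. The cause of these shifts was not tested. Signal over background is unknown for every probe set.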
